A study of Mus musculus with 8 samples.

Results

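Semaphorins, plexins, Slits, Robos, netrins and netrin receptors are the classical guidance ligands and receptors, and 47 genes whose symbols belong to these families were followed here among the 16889 genes of the deposited normalized set. Members were chosen by a rule on symbols, with earlier results of these data known. The rule took Dcc, Neo1 and every gene beginning with Plxn or Unc5. It also took those beginning with Sema, Slit or Robo and a digit, or with Ntn and a digit or g. The members comprise 7 class 3 semaphorins, 13 membrane-bound semaphorins, 9 plexins, 3 Slits, 4 Robos, 4 netrins and 5 netrin receptors. Another 2 match by name only: Unc50, which is not a netrin receptor, and Plxna4os1, a non-coding transcript antisense to Plxna4. The libraries were poly(A) RNA-seq of brain endothelial cells (ECs), with 1 library per pup, from 4 mice labelled mutant and 4 labelled wild type at postnatal day 9. Mutant pups were R26 GT-Map2k1-GFP/+;Tg-Cdh5CreER +/-, in which Cre recombinase under the endothelial Cdh5 promoter removes a stop cassette at the Rosa locus, so that the CAG promoter drives MAP2K1 carrying K57N together with GFP. MAP2K1 is the kinase that activates ERK, and K57N makes it overactive. All pups received tamoxifen at postnatal day 1, both parental strains were backcrossed to C57BL/6J, and the wild-type pups were drawn from the same litters. The labels do not say whether the wild-type pups carried neither transgene or only the Cre transgene or only the Rosa allele, so an effect of either alone cannot be told apart from that of both. ECs were taken from whole brain with CD31-coated beads. The allele had recombined in only some of the ECs, and no group expressed unmutated MAP2K1 from the same locus, so the mutation and the overexpression cannot be told apart.

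Guidance cues were named for the steering of axons, and the same ligands and receptors act on growing vessels. Class 3 semaphorins are secreted and bind a neuropilin that is complexed with a class A plexin or plexin D1, whereas most membrane-bound semaphorins bind plexins directly. Slits are large secreted proteins that bind Robo receptors. Netrins are laminin-related secreted proteins whose receptors are Dcc and Neo1, generally linked to attraction, and the Unc5 proteins, linked to repulsion. In vessels, plexin D1, Robo4 and Unc5b are the receptors most closely tied to ECs.

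Total counts ran from 24833373 to 34196955 in mutant libraries and from 28146348 to 32208421 in wild-type libraries. Map2k1 itself was at 14619 ± 2851 normalized counts in mutant and 1611 ± 116 in wild-type libraries, without overlap and in the direction the labels give (log2 fold change 3.18, SE 0.13, adjusted p = 2.84e-07). A normalized count here is a gene's count scaled to the mean library size, and values with ± are means and SDs over 4 libraries. A list of 10 endothelial markers, Cdh5 and Pecam1 among them, summed to between 342045 and 440462 normalized counts in every library, and no listed gene of any cell type was at 0 in all 8 libraries. Other cells were also present. Summed over 10 oligodendrocyte-lineage markers the range was 2721 to 4142 in mutant and 4620 to 11282 in wild-type libraries, and over 5 red blood cell markers 2573 to 8461 and 15739 to 27319. The sample descriptions carry 3 prefixes, each shared by both groups, with 2 libraries of each group under the first and 1 of each under the others. What a prefix stands for is not stated, and a fit with the prefix as a block was set beside the main one. Wild type 3 had the highest neuronal, granule neuron, choroid plexus and microglial sums. In bulk RNA, fewer cells of a type and less RNA per cell cannot be told apart.

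Of the 47 genes, 46 had enough counts to be tested, and 10 rose and 12 fell in mutant ECs at an adjusted p under 0.05 (quasi-likelihood test of edgeR, adjusted by Benjamini and Hochberg's method over 16887 genes, as is every adjusted p here). Among all genes tested 21.5% rose and 22.9% fell, or 44.4% in either direction, so that the 47.8% called among these genes is close to the background. For larger changes, 5 rose and 6 fell over 2-fold, where 5.9% and 8.05% of all genes did, and the 11 together are 23.9% of the tested members against 14% of all genes. In 20 members every mutant library lay on the same side of every wild-type library, 8 of them higher and 12 lower in mutant. The background shares for such separation were 20.6% higher, 21.9% lower and 42.5% in either direction. The median log2 fold change was -0.05 in the members and -0.02 over all genes, and the median size of the change was 0.60 and 0.37. Robo1, Sema3a, Sema3f, Sema4g and Unc5a rose over 2-fold, and Sema3c, Robo2, Ntng2, Neo1, Plxnb3 and Dcc fell over 2-fold. In none of these 11 did any mutant library overlap any wild-type library. The untested gene was Sema4f, with 4 to 7 raw counts in mutant and 8 to 53 in wild-type libraries. Without Wild type 3, 10 members rose and 11 fell, 45.7% of those tested where 41.3% of all genes were called. Over 2-fold there were 5 in each direction, 21.7% where 14.2% of all genes passed. With the prefix as a block, 14 rose and 13 fell, 58.7% of the tested members where 51.0% of all genes were called. With that block 13 changed over 2-fold, 28.3% where 14.5% of all genes did. Tested against a fold change of 2 itself, rather than by an estimate beyond it, 6 members passed, where 4.36% of all genes did.

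**Figure D1:**
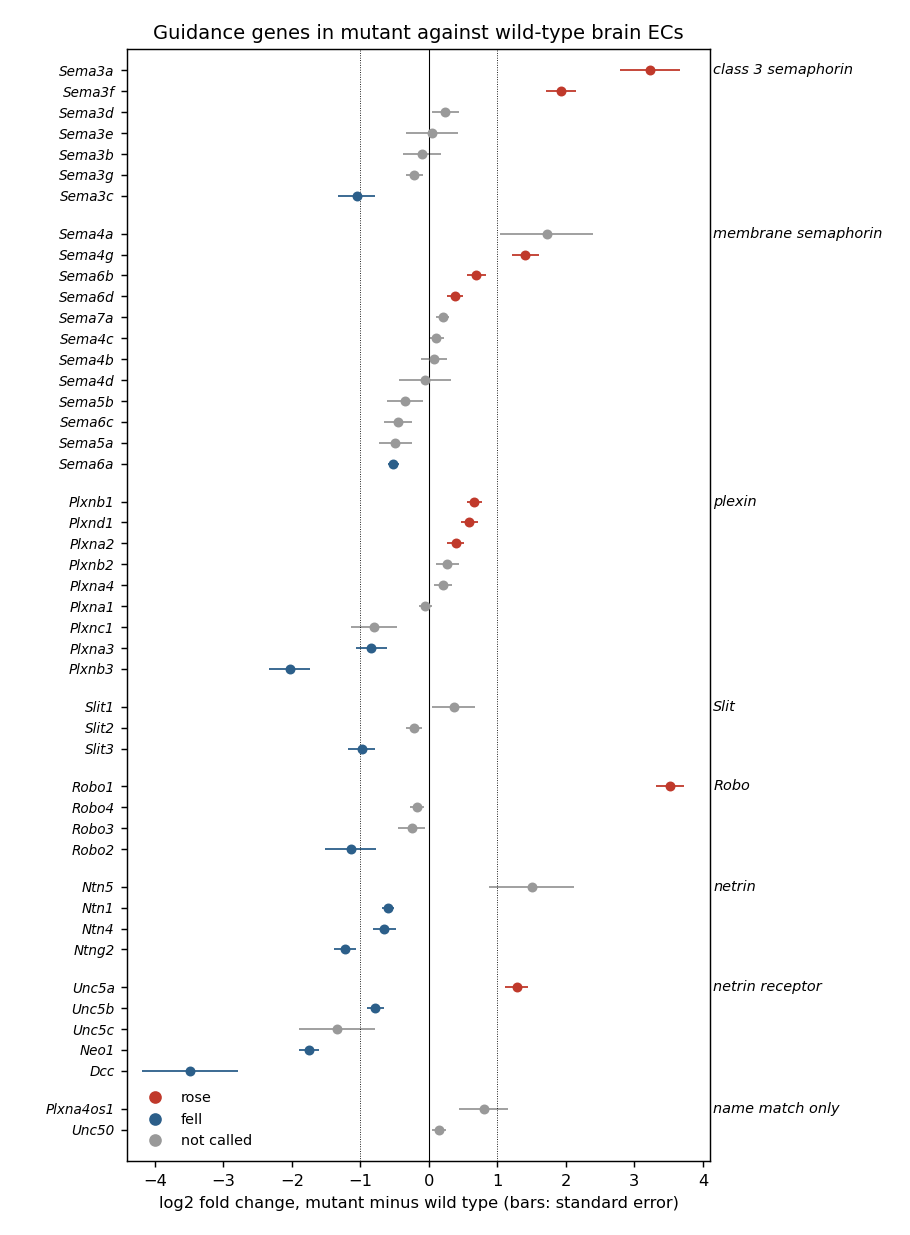
Log2 fold change, mutant minus wild type, of the 46 tested genes with standard errors as bars, grouped by family and coloured by the call at an adjusted p under 0.05; dotted lines mark a log2 fold change of 1 in either direction. Robo1 and Sema3a lie farthest to the right at 3.52 and 3.23, and Dcc farthest to the left at -3.48.

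None of the 11 genes that changed over 2-fold was among the most abundant in wild-type ECs. Levels of different genes are compared here as scaled counts divided by exon length (counts per kilobase per 1000000 scaled counts), called length-adjusted levels. Sema7a was the highest of the 47 genes in both groups, at 342 ± 20.4 in mutant and 298 ± 32.7 in wild type, and Plxnd1 was next at 241 ± 41.4 and 160 ± 13. Robo4 held the third place at 74.9 ± 7.67 and 84.3 ± 8.69. Sema3g, Sema4c, Unc5b and Sema6d followed in wild type between 48.0 and 76.4, and in the order Robo4, Sema3g, Sema4c and Unc5b each mean differed from the next by less than the larger SD of the pair. A length-adjusted level of 10 was exceeded by 12 members in wild type, none of them among the 11, and by 14 in mutant. Robo1 moved from place 30 to place 14, with a length-adjusted level of 0.927 ± 0.0819 in wild type and 10.6 ± 3.13 in mutant, and Sema3f from place 18 to place 9. Neo1 moved the other way, from place 15 to place 22. At the bottom, Sema3a was the lowest gene in wild type at 0.0186 and Dcc the lowest in mutant at 0.0135. In normalized counts, 9 members had a mean under 100 in both groups.

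**Figure D2:**
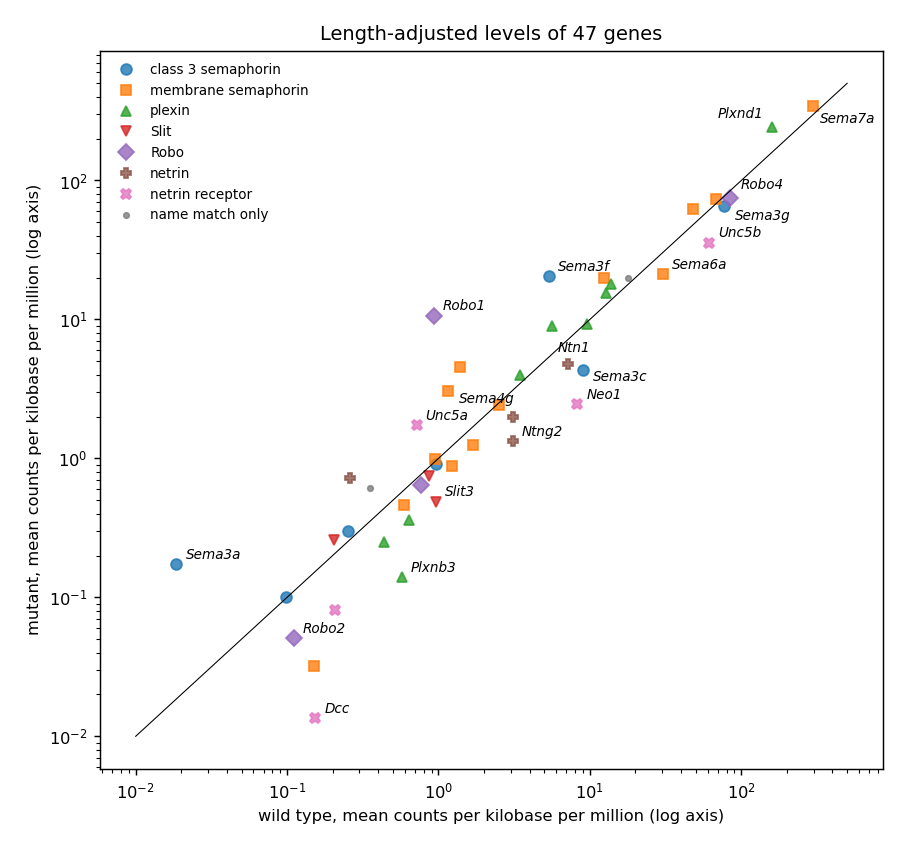
Mean length-adjusted level of each of the 47 genes in wild-type (horizontal) and mutant (vertical) libraries, in counts per kilobase per 1000000 scaled counts on log axes, with the line of equal levels; each point is the mean of 4 libraries. Robo1 (0.927 to 10.6) and Sema3a (0.0186 to 0.174) stand above the line and Neo1 (8.27 to 2.45) below it, while Sema7a, Robo4 and Sema3g lie near it.

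Among the secreted class 3 semaphorins, 2 rose, 1 fell and 4 of the 7 were not called. Sema3f, a ligand that acts through neuropilin 2, was measured at 4665, 2474, 2274 and 3208 normalized counts in the mutant libraries and at 849, 839, 648 and 970 in the wild-type libraries. Even the lowest mutant library was more than double any wild-type library, and Mutant 1 was the highest. The change was 1.93 on the log2 scale (SE 0.22, adjusted p = 8.51e-05). Sema3a, the prototype repellent that binds neuropilin 1, was scarce: 62.0, 50.9, 39.9 and 134 normalized counts in mutant and 6.45, 8.46, 5.19 and 10.5 in wild type. The groups were far apart, with Mutant 4 well above the other mutant libraries. Its log2 fold change was 3.23 (SE 0.44, adjusted p = 2.59e-04), the largest of any semaphorin. Sema3c, which can act through plexin D1 with either neuropilin, stood at 439, 1352, 1059 and 797 normalized counts in mutant and 1892, 1824, 1587 and 2276 in wild type. Every mutant library was lower, though the mutant libraries spread widely and Mutant 1 was the lowest. Sema3c fell by 1.05 on the log2 scale (SE 0.27, adjusted p = 0.00952), and with any 1 library left out the log2 fold change ran from -1.30 to -0.80.

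The most abundant class 3 semaphorin was not called. Sema3g, which ECs themselves make and which binds neuropilin 2, had 8872 ± 1268 normalized counts in mutant and 10295 ± 1654 in wild type (log2 fold change -0.21, SE 0.13, adjusted p = 0.219), and the groups overlapped. Sema3e, the ligand that binds plexin D1 without a neuropilin, was scarce at 27.9 ± 1.62 and 27.0 ± 15.0 (log2 fold change 0.04, SE 0.38, adjusted p = 0.937). Sema3b and Sema3d were likewise not called, with log2 fold changes of -0.10 and 0.24. The family total by length was 92.1 ± 12.2 in mutant and 92.1 ± 13.8 in wild type, yet its make-up differed. Sema3f made up 22.1% ± 5.92 of that total in mutant and 5.82% ± 0.24 in wild type, Sema3g 71.5% ± 3.96 and 82.9% ± 1.38, and Sema3c 4.77% ± 2.05 and 9.74% ± 0.716.

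Of the 12 membrane-bound semaphorins tested, 3 rose and 1 fell, and 1 of them passed 2-fold. Sema4g, a transmembrane class 4 semaphorin, was at 618, 398, 376 and 387 normalized counts in mutant and 152, 149, 222 and 143 in wild type. All mutant libraries were higher, Mutant 1 most of all, and Wild type 3 was the highest of its group. Sema4g rose by 1.41 on the log2 scale (SE 0.20, adjusted p = 3.34e-04). Sema6a, a class 6 semaphorin that binds plexins A2 and A4, had 6098, 5482, 5675 and 4768 normalized counts in mutant and 7743, 7636, 8074 and 8228 in wild type. The groups were separate and tight, and Sema6a fell by 0.52 (SE 0.08, adjusted p = 5.70e-04). Of the other class 6 members, Sema6b rose by 0.69 (SE 0.14, adjusted p = 0.00256) and Sema6d by 0.38 (SE 0.12, adjusted p = 0.0246), the latter with overlapping groups, and Sema6c was not called at -0.45.

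Sema7a, the lipid-anchored semaphorin that binds plexin C1 and beta-1 integrin, had 33430 ± 1996 normalized counts in mutant and 29196 ± 3204 in wild type (log2 fold change 0.20, SE 0.09, adjusted p = 0.110). Its groups overlapped, and it was called, with the same sign, under DESeq2, without Wild type 4 and with the prefix as a block (0.20, SE 0.06, adjusted p = 0.025). Sema4d, a plexin B1 ligand that immune cells carry, had 334, 289, 687 and 536 normalized counts in mutant and 375, 402, 889 and 245 in wild type. The higher values were in Mutant 3, Mutant 4 and Wild type 3, which also had the 3 highest sums over 8 microglial markers (16191, 12141 and 18076, the other libraries between 4248 and 7678). The log2 fold change of Sema4d was -0.05 (SE 0.38, adjusted p = 0.927), and its sign depended on the libraries included. Sema4a, singled out after its values were seen, had a large but uncertain difference of 1.72 (SE 0.68, adjusted p = 0.0627). It was at 214, 222, 894 and 1570 normalized counts in mutant and 89.3, 98.7, 358 and 337 in wild type, with overlap between the groups. Within each prefix the mutant libraries were higher, by 1.21, 1.32 and 2.21 on the log2 scale, and with the prefix as a block Sema4a was called (1.53, SE 0.17, adjusted p = 1.47e-04). The part of microglia in the values of Sema4a and Sema4d was not tested. The 4 remaining tested members, Sema4b, Sema4c, Sema5a and Sema5b, lay between -0.49 and 0.11 and were not called.

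Plexins, the semaphorin receptors, gave 3 rises and 2 falls among 9 genes. Plxnd1, the main endothelial plexin, was at 64962, 51524, 44060 and 48785 normalized counts in mutant and 37161, 36832, 31237 and 33614 in wild type. Each mutant library exceeded each wild-type library, and the change was 0.59 on the log2 scale (SE 0.12, adjusted p = 0.00269), under 2-fold. Plxnb1, the receptor of Sema4d, rose by 0.66 (SE 0.11, adjusted p = 0.00101) from 1608 ± 92.1 to 2536 ± 434 normalized counts, also without overlap. Plxna2, one of the Sema6a receptors, rose by 0.39 (SE 0.12, adjusted p = 0.0205), but Mutant 3 with 8185 lay below Wild type 4 with 8774 normalized counts. Its call was lost without Mutant 2 (log2 fold change 0.36, adjusted p = 0.0504) and without Wild type 2 (0.33, adjusted p = 0.0650).

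The largest plexin change was a fall in a scarce gene. Plxnb3, a plexin known from oligodendrocytes, had 24.1, 25.4, 35.5 and 22.6 normalized counts in mutant and 111, 124, 148 and 56.9 in wild type. No mutant library reached the lowest wild-type library, Wild type 4, which was also the lowest wild-type library for the oligodendrocyte-lineage sum. The highest libraries differed, however. Plxnb3 was highest in Wild type 3 and Mutant 3, and the oligodendrocyte-lineage sum in Wild type 1 (11282) and Mutant 2 (4142). Plxnb3 fell by 2.03 (SE 0.30, adjusted p = 4.33e-04), and 9 of the 10 oligodendrocyte-lineage markers fell too, Sox10 from 127 ± 35.0 to 15.0 ± 4.72 normalized counts. The part of those cells in the result was not tested. Plxna3, a neuropilin 2 partner, fell by 0.84 (SE 0.23, adjusted p = 0.0141). Plxna1 (log2 fold change -0.05, SE 0.09, adjusted p = 0.672) and Plxnb2, the receptor of Sema4c (0.27, SE 0.17, adjusted p = 0.223), were not called, nor were Plxna4 at 0.21 and Plxnc1 at -0.80. With the prefix as a block Plxnb2 (0.30, SE 0.10, adjusted p = 0.0359) and Plxnc1 (-0.80, SE 0.21, adjusted p = 0.0128) were called. Plxnd1 provided 80.9% of the plexin total by length in mutant and 77.2% in wild type, and the total itself was 298 ± 42.9 and 207 ± 11.

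The Slits had length-adjusted levels under 1 in both groups, and 1 of 3 fell. The exon length used was 25433 bases for Slit2, against 5921 for Slit1 and 6067 for Slit3. A shorter length for Slit2 would give it a higher level. Slit3, at 72.2, 77.4, 119 and 83.6 normalized counts in mutant and 165, 195, 200 and 136 in wild type, was lower in every mutant library and fell by 0.98 on the log2 scale (SE 0.20, adjusted p = 0.00266). Slit2, the best studied Slit, had 559 ± 98.8 and 653 ± 35.3 normalized counts (log2 fold change -0.22, SE 0.12, adjusted p = 0.161). Slit1 was at 45.7 ± 11.3 and 35.6 ± 14.3 and was not called. Together the Slits came to a length-adjusted total of 1.49 ± 0.155 in mutant and 2.03 ± 0.187 in wild type, far below that of the Robos.

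Robo1 rose more than any other member. This canonical Slit receptor (chr16:72663149-73046095, plus strand, GRCm38) was at 3288, 2040, 1667 and 2564 normalized counts in mutant and 196, 210, 233 and 193 in wild type. The wild-type libraries lay within a narrow band and the lowest mutant library was several times above it. The ratio of the means was 11.5 and the log2 fold change 3.52 (SE 0.20, adjusted p = 1.45e-06), and it ran from 3.35 to 3.66 with any 1 library left out. Robo2, another Slit receptor, lies 0.846 Mb away on the same chromosome and went the other way, from a very low level: 29.1, 19.9, 18.8 and 31.3 normalized counts in mutant and 42.4, 32.0, 96.8 and 47.5 in wild type. The groups just failed to touch, and Wild type 3 was about double its group's other libraries. Robo2 fell by 1.14 (SE 0.37, adjusted p = 0.0276). Its call was lost without Wild type 3 (log2 fold change -0.70, adjusted p = 0.0782), without Mutant 2 (-1.04, adjusted p = 0.0700) and without Mutant 3 (-1.02, adjusted p = 0.0703).

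Robo4, the endothelial Robo, was abundant and not called. It had 12449, 13061, 11318 and 10341 normalized counts in mutant and 14376, 14308, 11489 and 12893 in wild type, with overlap (log2 fold change -0.17, SE 0.10, adjusted p = 0.192). Robo3, a regulator of midline crossing by axons whose gene ends 554 bases from that of Robo4, was at 132 ± 35.4 and 157 ± 17 and not called. By length the family total was alike, 86.3 ± 8.4 in mutant and 86.1 ± 8.57 in wild type, but Robo1 made up 12.3% ± 3.24 of it in mutant and 1.09% ± 0.201 in wild type. Robo4 took up 86.9% and 97.9%.

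**Figure D3:**
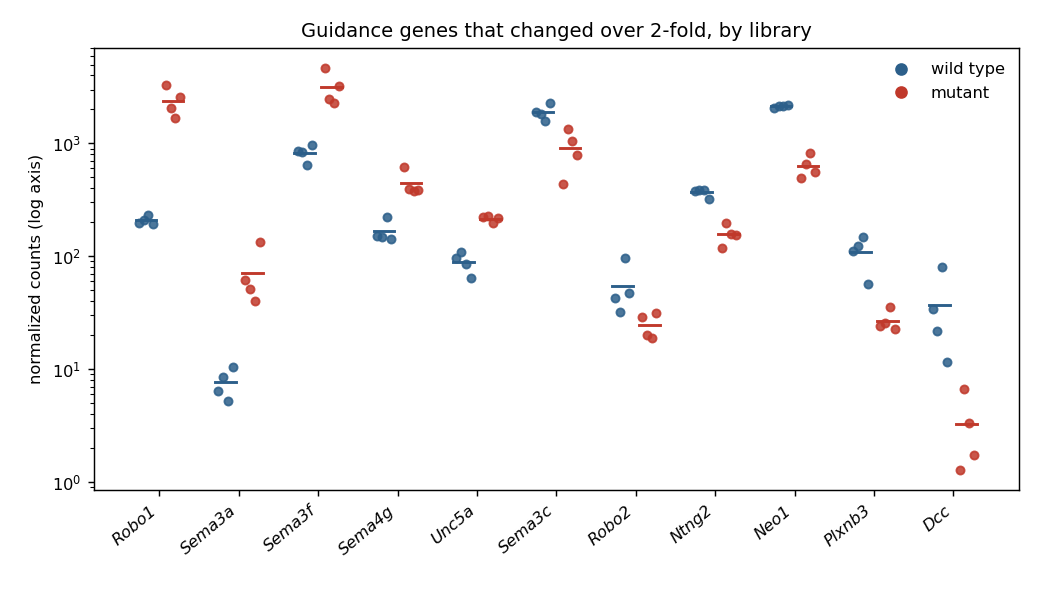
Normalized counts of the 11 genes that changed over 2-fold in each of the 4 wild-type and 4 mutant libraries, on a log axis; points are libraries and horizontal lines are group means. For none of the 11 do the groups overlap, and the gap is narrowest for Robo2 (31.3 against 32.0) and widest for Robo1 (1667 against 233).

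Of the netrins, 3 of 4 fell and none rose. Ntn1, the founding netrin, was at 765, 969, 915 and 891 normalized counts in mutant and 1425, 1348, 1192 and 1406 in wild type. The mutant libraries were all lower, and Ntn1 fell by 0.60 on the log2 scale (SE 0.09, adjusted p = 5.08e-04). Ntn4, a netrin that binds laminin in basement membranes, fell by 0.65 (SE 0.17, adjusted p = 0.00986) from 346 ± 54.5 to 220 ± 43.3 normalized counts, without overlap. Ntng2 encodes a lipid-anchored netrin that does not bind Dcc or Unc5 receptors but a synaptic adhesion protein, Lrrc4. It had 119, 198, 158 and 153 normalized counts in mutant and 381, 385, 389 and 320 in wild type, again apart, and fell by 1.23 (SE 0.16, adjusted p = 1.68e-04). Exon bases shared on the same strand with 6530402F18Rik make up 14% of Ntng2, so reads there cannot be told apart. Ntn5 was the exception in sign, at 47.9 ± 39.2 and 17.2 ± 10.6 (log2 fold change 1.50, SE 0.62, adjusted p = 0.0746), and with the prefix as a block it was called (1.37, SE 0.28, adjusted p = 0.00334). The netrin total by length was 8.79 ± 1.15 in mutant and 13.7 ± 0.701 in wild type.

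Of the 5 netrin receptors, 3 fell, 1 rose and 1 was not called. Unc5b, the endothelial Unc5 receptor (chr10:60762610-60831581, minus strand), was at 7269, 6564, 5680 and 5213 normalized counts in mutant and 11736, 11522, 8599 and 10711 in wild type. All mutant libraries were below all wild-type libraries, and Unc5b fell by 0.78 (SE 0.13, adjusted p = 6.89e-04). Neo1, neogenin, a receptor for netrins and for repulsive guidance molecules (chr9:58874687-59036441, minus strand), was at 490, 663, 829 and 556 normalized counts in mutant and 2073, 2160, 2141 and 2188 in wild type. Its wild-type libraries were almost level and its mutant libraries lay far below. Neo1 fell by 1.75 (SE 0.14, adjusted p = 1.13e-05), within -1.90 to -1.63 with any 1 library left out. Unc5a, usually described in neurons (chr13:54949411-55006018, plus strand), was the receptor that rose: 222, 226, 197 and 217 normalized counts in mutant against 95.8, 109, 85.6 and 64.3 in wild type. The mutant libraries were tight and the groups well apart (log2 fold change 1.28, SE 0.17, adjusted p = 2.24e-04).

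Dcc, the founding netrin receptor, was close to the detection limit in mutant libraries, with 1, 6, 3 and 2 raw counts against 37, 23, 93 and 11 in wild type. As normalized counts these are 1.27, 6.63, 3.32 and 1.74 against 34.1, 21.6, 80.4 and 11.6. The groups did not overlap, but Wild type 3 was far above Wild type 4. Dcc fell by 3.48 on the log2 scale (SE 0.70, adjusted p = 0.00256). Unc5c, a repulsive netrin receptor, ranked the wild-type libraries in the same order as Dcc, with 114, 57.3, 265 and 31.6 normalized counts. Its mutant libraries, at 27.9, 54.2, 43.2 and 59.2, overlapped with them, and it was not called (log2 fold change -1.34, SE 0.56, adjusted p = 0.0752). It was called with DESeq2, with no filter on low counts and without Wild type 4, in the same direction. By length, Unc5b made up 89.1% of the netrin receptor total in mutant and 86.6% in wild type, Neo1 6.26% and 11.8%, and Unc5a 4.41% and 1.02%. The total was 39.9 ± 5.1 in mutant and 70.6 ± 8.0 in wild type.

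**Figure D4:**
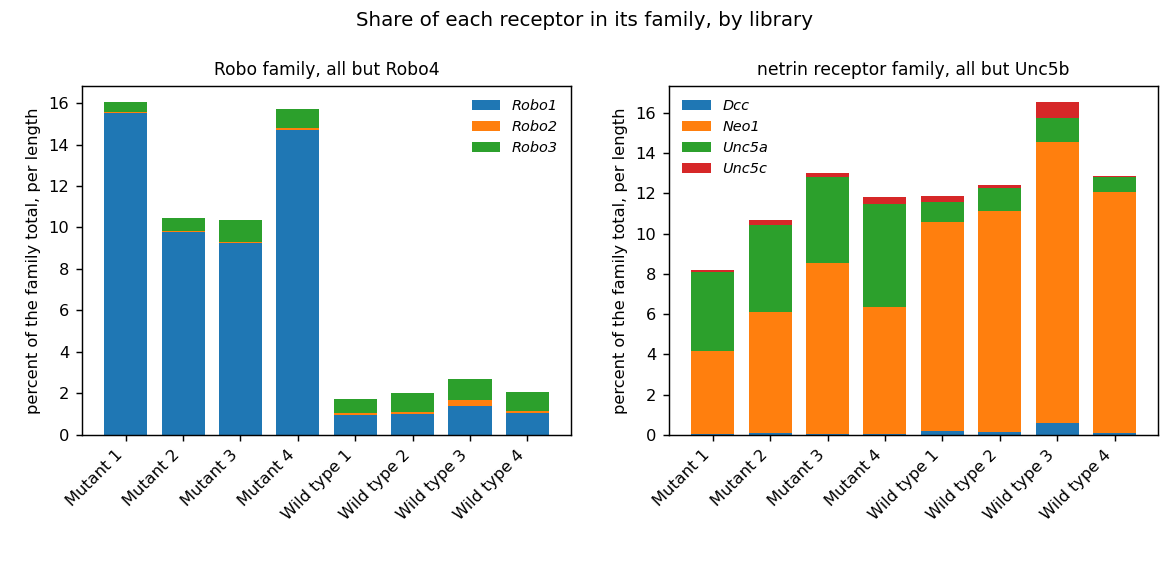
Percent of the length-adjusted family total taken by each minor receptor in each library, for the Robo family without Robo4 and the netrin receptor family without Unc5b; both axes start at 0. Robo1 has 12.3% on average in mutant and 1.09% in wild type, and the Neo1 segment is smaller and the Unc5a segment larger in the mutant libraries.

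Promoter sequence is shown for the 4 called Slit and netrin receptors with the largest length-adjusted differences, as the 250 bases before the start in RefSeq on GRCm38.p6, 5′ to 3′ on the gene's strand. The windows are chr16:72662899-72663148 for Robo1, chr13:54949161-54949410 for Unc5a, chr9:59036442-59036691 for Neo1 and chr10:60831582-60831831 for Unc5b. Capitals mark matches on either strand to the AP-1 motif (TGANTCA), the ETS motif (CCGGAAG), the GC box (GGGCGG), the CCAAT box (those 5 letters) or the TATA box (TATAAA).
Robo1: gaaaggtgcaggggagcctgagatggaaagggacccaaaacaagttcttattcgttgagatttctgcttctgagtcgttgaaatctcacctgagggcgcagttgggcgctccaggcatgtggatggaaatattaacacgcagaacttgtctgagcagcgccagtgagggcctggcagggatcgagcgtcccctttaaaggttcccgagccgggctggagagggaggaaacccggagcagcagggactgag
Unc5a: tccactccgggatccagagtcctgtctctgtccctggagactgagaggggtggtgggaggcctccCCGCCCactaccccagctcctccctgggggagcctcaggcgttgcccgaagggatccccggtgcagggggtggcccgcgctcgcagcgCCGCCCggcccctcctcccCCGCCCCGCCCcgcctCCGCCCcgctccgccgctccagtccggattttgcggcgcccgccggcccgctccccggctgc
Neo1: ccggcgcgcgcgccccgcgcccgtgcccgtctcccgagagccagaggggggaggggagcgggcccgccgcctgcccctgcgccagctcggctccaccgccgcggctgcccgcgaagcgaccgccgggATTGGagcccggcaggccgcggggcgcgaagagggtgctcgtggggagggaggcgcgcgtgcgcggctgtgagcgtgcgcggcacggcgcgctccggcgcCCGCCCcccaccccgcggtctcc
Unc5b: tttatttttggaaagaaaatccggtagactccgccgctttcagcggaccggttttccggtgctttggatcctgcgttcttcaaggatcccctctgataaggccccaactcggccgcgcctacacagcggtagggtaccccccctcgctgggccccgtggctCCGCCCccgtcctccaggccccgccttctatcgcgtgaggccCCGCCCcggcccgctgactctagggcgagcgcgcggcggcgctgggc

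Of these 4 windows, that of Robo1 held none of the motifs, that of Unc5a held 5 GC boxes, that of Neo1 held 1 GC box and 1 CCAAT box, and that of Unc5b held 2 GC boxes. Their GC contents were 56.0%, 76.8%, 83.2% and 66.8%, where the median of 32851 such windows was 52.4%. They held 11, 25, 45 and 27 CpG dinucleotides against a median of 6. Windows on chromosome 18, where Dcc and Sema6a lie, were left out, both for the members and for the 32851. The remaining RefSeq windows matched 38 of the members, 51 windows in all. A GC box was in 64.7% of the 51 and in 32.7% of all windows, a CCAAT box in 19.6% and 33.8%, a TATA box in 1.96% and 12.4%, the AP-1 motif in 5.88% and 6.75%, and the ETS motif in 3.92% and 6.91%. The windows with an AP-1 match belonged to Sema4c, Sema4d and Sema6b, and those with an ETS match to Plxnb1 and Unc50.

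The wider pathway was described with a list of 71 co-receptors, other ligands and effectors, of which 68 were tested. Of these, 21 rose and 28 fell, 72.1% in all beside the 44.4% of all genes. Changes over 2-fold were called in 22.1% of them and in 14% of all genes. With only genes averaging 100 or more normalized counts kept, 54.1% of all genes were called, and 21 listed genes rose and 23 fell. The list was drawn up with earlier results of these data known, and its share was not tested against genes of like level. Half-way in the list lay a log2 fold change of -0.19 (the median). Both neuropilins were abundant: Nrp2 rose from 7120 ± 273 to 9567 ± 655 normalized counts (log2 fold change 0.43, SE 0.07, adjusted p = 8.74e-04), and Nrp1 was at 9534 ± 556 in wild type and 8555 ± 376 in mutant (-0.16, SE 0.07, adjusted p = 0.0947). The largest rises on the list were in Mical2, Crmp1 and Rnd3. Mical2, of a family of oxidases that act on actin, was at 2670, 1617, 1626 and 3244 normalized counts in mutant and 137, 151, 256 and 225 in wild type, clear of each other, and rose by 3.57 (SE 0.28, adjusted p = 1.13e-05). Crmp1, a collapsin response mediator of Sema3a signalling, rose by 3.50 (SE 0.30, adjusted p = 1.88e-05) from 258 ± 138 to 2933 ± 322. Rnd3, of the Rnd GTPases that bind plexins, rose by 2.01 (SE 0.16, adjusted p = 1.10e-05), from 747 ± 121 to 3011 ± 634.

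Among listed genes averaging 100 or more normalized counts in the higher group, the largest falls were in 3 genes known from the nervous system. Nrcam, an adhesion protein that serves as a co-receptor in semaphorin complexes, was at 65.8, 147, 152 and 118 normalized counts in mutant and 467, 414, 454 and 446 in wild type. Its mutant libraries were all far lower, and it fell by 1.88 (SE 0.22, adjusted p = 9.64e-05). Srgap3, a GTPase-activating protein that binds Robo receptors, fell by 1.54 (SE 0.39, adjusted p = 0.00851). Cntn2, an axonal adhesion protein that is also on the granule neuron list, fell by 3.87 (SE 1.05, adjusted p = 0.0123), although with 15.8 normalized counts Wild type 4 lay below Mutant 3 and Mutant 4 with 49.9 and 38.3. Without Wild type 3, 20 of the pathway genes rose and 25 fell, where 41.3% of all genes were called.

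Most markers of neurons and oligodendrocytes fell, as did several of the scarce guidance genes. Of 10 neuronal markers 6 fell and 1 rose, and their sums were 972, 1095, 1205 and 1573 normalized counts in mutant and 2533, 1364, 3664 and 1676 in wild type. Wild type 3 had the highest neuronal sum and also the highest value of Dcc, Robo2, Unc5c, Plxnb3 and Plxna3. Among wild-type libraries it was also the highest for Robo1 (233) and Sema4g (222), which rose. Of the mutant libraries, Mutant 4 had the highest neuronal sum and the highest Robo2 (31.3) and Unc5c (59.2). Its Plxnb3 (22.6) and Plxna3 (68.8) were the lowest of the mutant libraries, and its Dcc (1.74) was below Mutant 2 and Mutant 3. Over 6 granule neuron markers the range was 614 to 1028 in mutant and 478 to 3661 in wild type, and 3 of the 5 that were tested fell. The part of neurons and oligodendrocytes in the falls of Dcc, Robo2, Plxna3, Ntng2 and Neo1 was not tested. The astrocyte sum was higher in mutant, 18843 to 22475 against 12557 to 14596. Most of it came from Gja1, at 19462 ± 2148 and 11160 ± 933, which alone of the 8 astrocyte markers rose. On the same list Aldh1l1 and Sox9 fell, and Aqp4, Slc1a3, Slc1a2 and Aldoc were not called, with log2 fold changes of -0.87 to -0.40. Gfap was not called at 0.24, and the median of the list was -0.59. The endothelial sums overlapped, with 3 of 10 markers rising and 3 falling. Pericyte and smooth muscle sums (22056 to 37609 and 20845 to 38789) and fibroblast sums (31272 to 40540 and 27263 to 36400) overlapped as well, and the choroid plexus sums were 2011 to 6821 in mutant and 3626 to 18492 in wild type.

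**Figure D5:**
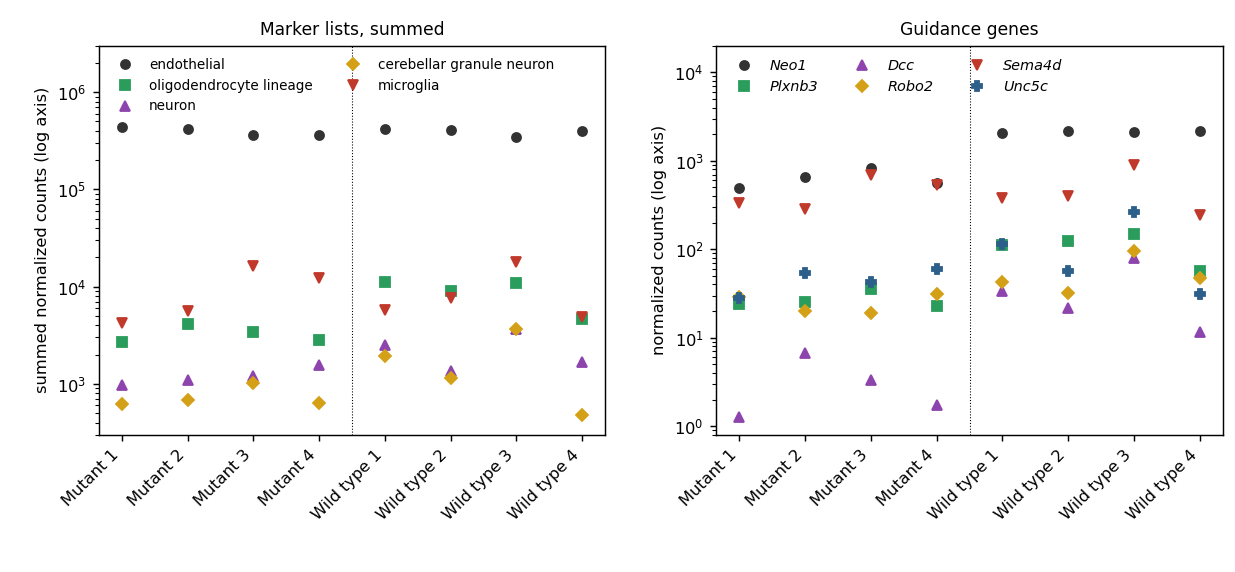
Summed normalized counts of 5 marker lists (left) and normalized counts of 6 guidance genes (right) in each library, on log axes, with mutant libraries left of the dotted line. The endothelial sums stay between 342045 and 440462, Dcc and Unc5c are highest in Wild type 3 as the neuron and granule neuron sums are, and Neo1 and the oligodendrocyte-lineage sum are both lower in every mutant library. Among the wild-type libraries Neo1 is almost level (2073 to 2188), and the oligodendrocyte-lineage sum runs from 4620 to 11282. The part of oligodendrocytes in the values of Neo1 was not tested.

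Several members sit close together in the genome without changing together. Sema3d, Sema3a, Sema3e and Sema3c follow each other on chromosome 5 with gaps of 0.536, 0.423 and 3.32 Mb, and among them Sema3a rose, Sema3c fell and the other two were not called. Sema3b and Sema3f lie 72271 bases apart on chromosome 9, where Sema3f rose and Sema3b was not called. Plxnb3 and Plxna3, 0.557 Mb apart on chromosome X, both fell. The 22 called members had the same direction within each of the 3 prefixes, as did 98.3% of all called genes, which were called on these same libraries. Sema6d was nearly level under the prefixes with 1 library of each group, at 0.11 and 0.03 on the log2 scale, and Plxna2 differed by 0.22 and 0.15.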

How the data were processed

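The authors trimmed reads with Trimmomatic and mapped them to GRCm38 with STAR. They deposited raw gene counts per library, with 49315 genes, and a set of 16889 genes as signal, that is counts divided by DESeq2 size factors. In that set 100% of 135112 values came back as whole reads within 0.01 and equal to the raw counts. The program used for counting, its strand setting and the annotation release are not given in the sources used here, so reads of antisense partners cannot be told apart. Of the 16889 IDs, 16850 matched a symbol. Samples were grouped by their titles.

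Raw counts were fitted with edgeR 4.0.16 (R 4.3.3, limma 3.58.1): filterByExpr with a minimum count of 10, TMM scaling, the quasi-likelihood test, all 8 libraries, no covariate and Benjamini-Hochberg adjustment over 16887 genes. A gene was called at an adjusted p under 0.05, and over 2-fold also with a log2 fold change beyond 1 in size, which are the limits of the study. On simulated counts 181 of 200 changed genes were called, and 11 unchanged genes. Alternatives were DESeq2 1.42.0, other scalings and filters, blocks, a test against a minimum fold change and each library left out.

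The members, lists and named genes were chosen with earlier results of these data known. Named were the members called over 2-fold, 24 listed vascular or canonical members, both neuropilins, and the 3 largest rises and falls among called pathway genes whose higher group averaged 100 normalized counts or more. Each library came from its own pup. Replicates differed beyond counting noise (chi-square per degree of freedom 7.3 to 41.6). Counts cover 8 libraries of 24833373 to 34196955 reads, and PCR copies were not marked by molecular identifiers.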

Additional observations from a re-analysis of the deposited data

Results flagged for a closer look

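Among the 28 named members, 56 groups of 4 libraries were checked for a library that stood apart from the others of its group by Dixon's criterion (a large gap to the nearest library relative to the range of the group, at the 95% level), and 3 did. Chance gives about 1 in 20 such groups. Sema4g was highest in Mutant 1, at 618 normalized counts, and in Wild type 3, at 222 normalized counts, each above the other 3 libraries of its group. Ntng2 was lowest among the wild-type libraries in Wild type 4, at 320 normalized counts. Sema4g stayed past the threshold whichever library was left out (log2 fold change 1.24 to 1.59, largest adjusted p = 0.0019 by edgeR), as did Ntng2 (-1.36 to -1.10, largest adjusted p = 0.00108 by edgeR).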

How the results depend on the processing

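Over 36 results, made up of 28 named members and 8 named pathway genes, 16 alternatives gave 544 values on the same side of the threshold with the same sign, 11 that newly passed it, 5 that no longer did and 9, all in genes that were not called, that changed sign. Sema4d turned positive with a replicate block (0.02), a label prefix block (0.02) and without Mutant 1 (0.10), Mutant 2 (0.12) or Wild type 3 (0.44), Sema3e turned negative with upper quartile scaling (-0.02) and without Wild type 2 (-0.16) or Wild type 4 (-0.17), and Plxna1 turned positive without Mutant 1 (0.02). With 1 library left out, the ranges were -0.30 to 0.44 for Sema4d, -0.17 to 0.39 for Sema3e and -0.11 to 0.02 for Plxna1. The 5 losses were Robo2 without Mutant 2, Mutant 3 or Wild type 3 and Plxna2 without Mutant 2 or Wild type 2. Of the genes over 2-fold, 3 rose and 3 fell in a test against a log2 fold change of 1 (all genes 4.36%). That test asks for more than an estimate beyond 1. Among genes averaging 100 normalized counts or more, a filter that leaves out low genes, 4 members rose and 3 fell over 2-fold. These were 20% of the 35 members tested under that filter, where 10.5% of all genes passed. At an adjusted p under 0.05 the filter left 18 members called, 51.4%, below the 54.1% of all genes. With 1 library left out, 8 to 12 members rose and 11 to 16 fell. These were 43.5% to 57.4% of the tested members, where 37.3% to 42.1% of all genes were called. Over 2-fold, 5 to 7 rose and 5 to 8 fell, 21.7% to 27.7% where all genes gave 12.7% to 15.3%. Of the pathway genes 18 to 23 rose and 21 to 27 fell in these fits. Replicate numbers were not taken to pair the samples, since no label says what they share and the correlations of same-numbered deviations were 0.193, 0.201, 0.283 and 0.0201, with 1 of 4 near 0. All pairs of the first prefix lay between 0.163 and 0.238. The paper states that wild-type pups matched mutants in number within each litter, but does not link litters to libraries. Its example, 2 mutant and 2 wild-type pups from litter 1, has the same numbers as the first prefix. The unblocked main fit leaves any such matching out. With the replicate block 13 members rose and 15 fell (60.9% called, all genes 48.3%), and with the prefix block 14 and 13 (58.7% and 51.0%). With either block 7 rose and 6 fell over 2-fold, 28.3% of the tested members where 14.4% and 14.5% of all genes did. Both blocks newly called Sema7a, Sema4a, Ntn5 and Plxnc1, the replicate block also Sema5a and Sema6c, and the prefix block also Plxnb2. On whole reads recovered from the normalized set, an alternative chosen after seeing the data, 10 members rose and 13 fell (48.9%), where 7555 genes were called (44.7%). Low counts limit the precision for Sema4f, Dcc, Sema3e, Ntn5 and Sema3a, among others.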

Other observations

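The symbol rule also matched 5 genes of the count files that are outside the normalized set, all near the detection limit. Unc5d, a netrin receptor, had 46 counts over the 8 libraries, with 0 to 3 in mutant and 6 to 18 in wild type, and Ntng1 had 33. Unc5cl had 16 counts, and the antisense transcripts Plxna4os2 and Plxna4os3 had 10 and 9. None of these was tested.

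Shared exon bases bear on a few more members. Sec1 overlaps 23.4% of the exon bases of Ntn5 on the opposite strand, Gm26811 overlaps 10.7% of Plxna1 and D430040D24Rik 7.27% of Sema4c, both also on the opposite strand.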
